A study of Arabidopsis thaliana with 12 samples.

Results

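The PRA1 genes PRA1.F1 (AT1G17700), PRA1.B4 (AT2G38360) and PRA1.B6 (AT5G07110), were followed over all arrays of the series, 3 of the 13356 genes that could be analysed. They were chosen with their values on these arrays in view, so their levels and differences are given as a description with no test. The comparison group was the other genes whose symbols begin with PRA1. The gene table listed 19 PRA1 genes in all. Besides the 3 chosen genes, 6 carried a PRA1 symbol and had a probe set naming them alone (PRA1.A1, PRA1.B1, PRA1.E, PRA1.G1, PRA1.G2 and PRA1.H), and 2 were found through a synonym, PRA7 (PRA1.F2) and PRA8 (PRA1.F3). PRA1.F4 was read only by 2 probe sets that it shares with AT3G13700, and 7 genes (PRA1.A2, PRA1.A3, PRA1.B2, PRA1.B3, PRA1.B5, PRA1.C and MPI7, which is PRA1.D) were not analysed here. Each of the 11 genes measured alone was represented by 1 probe set.

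RNA came from whole seedlings of Arabidopsis thaliana, ecotype Columbia (Col), 14 days old and grown at 22°C with long days, and was hybridised to 12 Affymetrix arrays. The 4 genotypes had 3 biological replicates each. These were wild-type Col, brm-1 (a T-DNA insertion null allele of BRM, the ATPase of a SWI/SNF chromatin remodeler), clf-29 (a T-DNA insertion in CLF, an H3K27 methyltransferase of Polycomb repressive complex 2) and the double mutant brm-1 clf-29. The comparisons ask how transcripts respond to the loss of BRM, of CLF and of both. Because whole seedlings were ground, fewer cells of a type and less RNA per cell cannot be told apart.

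PRA1 proteins, the prenylated RAB acceptors, are small membrane proteins of the endoplasmic reticulum (ER), the Golgi and endosomes. They bind RAB GTPases, the lipid-anchored switches that mark membranes and direct vesicle transport. Soluble RABs are held by GDI, a carrier that covers their lipid anchor, and work on the yeast and animal relatives of PRA1 links these proteins to the return of RABs from GDI to membranes. In Arabidopsis the family is large and falls into lettered clades. PRA1.B6 is known there for limiting the exit of cargo from the ER, and PRA1.F4 for its part in transport through the Golgi.

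Values are log2 MAS5 signals, so a difference of 1 is a 2-fold difference in signal. They are comparable between arrays for 1 probe set, not between probe sets. The median of all genes was 7.13. Over all arrays, 95% of the readings of the 27 bacterial control probe sets lay under 4.71, used below as the background. These probe sets should detect nothing in plant RNA to which no bacterial transcript was added. The replicate 3 arrays stood apart from the rest. On the first principal component, which held 30.9% of the variance, they lay between -22.24 and -12.16 and the other 8 arrays between -5.75 and 21.42. Of 29 markers listed for leaf, root, meristem and flower, defence and ER stress, 7 had a probe set naming them alone. The leaf genes RCA and LHCB4.1 were bright on every array (14.19 to 14.69). RCA, the activase of the carbon-fixing enzyme Rubisco, was higher on every mutant array (14.51 to 14.69) than in Col (14.22 to 14.29), by 0.28 ± 0.13 in brm-1, 0.38 ± 0.13 in clf-29 and 0.34 ± 0.13 in the double mutant, but was not called (limma adjusted p = 0.356, 0.225 and 0.157). LHCB4.1, a light-harvesting protein, differed by 0.30 ± 0.13, 0.17 ± 0.13 and 0.22 ± 0.13 (adjusted p = 0.355, 0.689 and 0.432). The root hair expansins EXPA7 and EXPA18 lay between 7.40 and 9.86, and the stem cell gene CLV3 was under the background on all arrays. At an unadjusted p under 0.05, 3, 3 and 2 of the 7 markers differed from Col in brm-1, clf-29 and the double mutant, as did 13.1%, 12% and 18.3% of all genes. Of the 7, UFO, a floral meristem gene, was called in clf-29 against Col (mean level 1.52 in Col, 3.29 in brm-1, 5.22 in clf-29 and 4.15 in brm-1 clf-29; limma adjusted p = 0.043 in clf-29). UFO was under the background on all Col and brm-1 arrays. In clf-29 against Col, 0.943% of all genes were called. The part of the cells these markers stand for in the PRA1 values was not tested. BZIP60, a transcription factor of the ER stress response, was not called in any mutant against Col (differences of -0.21 ± 0.25, -0.59 ± 0.25 and -0.41 ± 0.25 in brm-1, clf-29 and the double mutant; adjusted p = 0.811, 0.382 and 0.445).

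All 3 chosen genes had their lowest mean level in the double mutant. The means of the single mutants varied between the genes, but the brm-1 and clf-29 arrays overlapped for each of them. PRA1.F1 was only slightly lower in each single mutant and much lower in brm-1 clf-29. PRA1.B6 was already lower in brm-1, and less so in clf-29 (-0.29 ± 0.22, SE). PRA1.B4 was lower in clf-29 (-0.49 ± 0.14) and less so in brm-1 (-0.23 ± 0.14). Its mean differed little further between clf-29 and the double mutant.

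The PRA1.F1 signal in Col was 7.94, 7.81 and 7.85 in replicates 1, 2 and 3 (7.87 ± 0.07, SD, n = 3). In brm-1 it was 7.58, 7.53 and 7.68 (7.60 ± 0.08), and in clf-29 it was 7.80, 7.48 and 7.73 (7.67 ± 0.17). In brm-1 clf-29 it was 6.65, 6.75 and 7.02 (6.81 ± 0.19). The 3 double-mutant arrays were therefore the 3 lowest of the 12, and the highest of them lay below every array of the other genotypes. Every brm-1 and every clf-29 array was also below every Col array, whereas the brm-1 and clf-29 arrays overlapped each other. PRA1.F1 differed from Col by -0.27 ± 0.15 (SE of the limma fit) in brm-1, by -0.20 ± 0.15 in clf-29 and by -1.06 ± 0.15 in brm-1 clf-29, which is a 2.08-fold lower signal in the double mutant. Taken by replicate number, the double mutant was below Col by a difference of -1.29, -1.06 and -0.83.

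**Figure D1:**
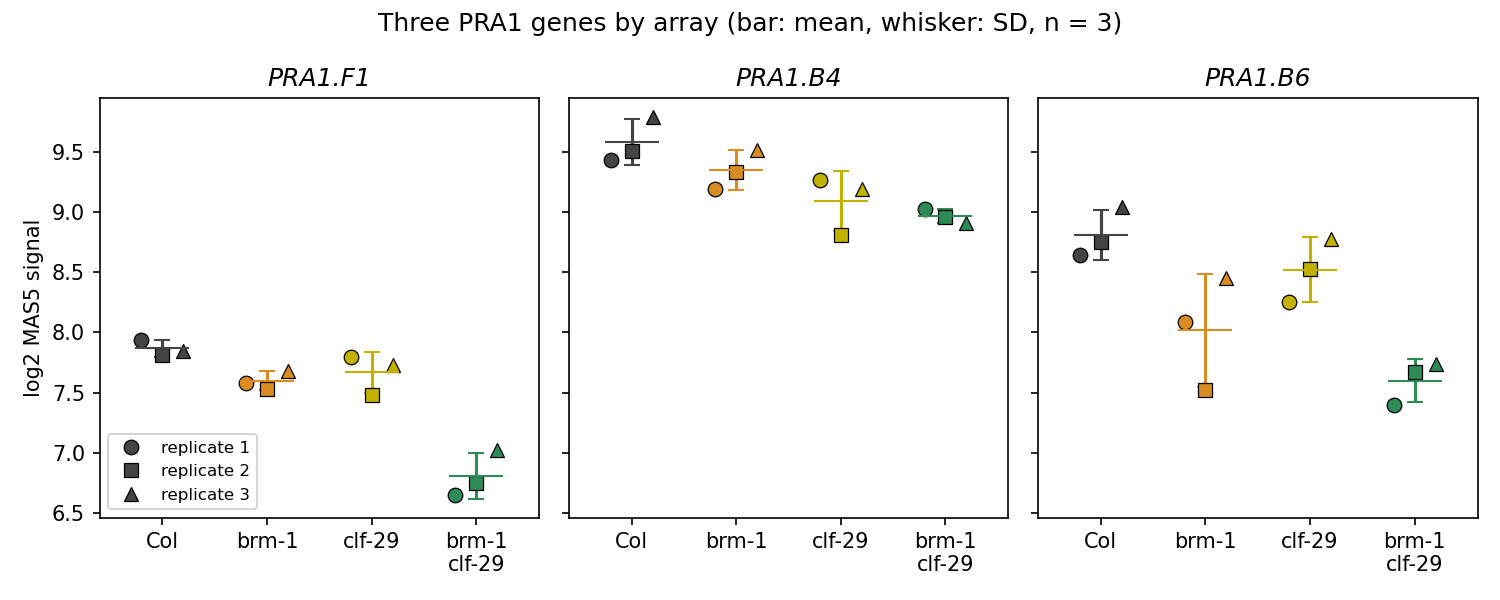
The log2 MAS5 signal (vertical axis) of PRA1.F1, PRA1.B4 and PRA1.B6 on each array, by genotype; horizontal bars are means and whiskers SDs of 3 arrays, and marker shapes give the replicate number. The PRA1.F1 arrays of brm-1 clf-29 (6.65 to 7.02) lie below all others, PRA1.B4 declines in smaller steps, and PRA1.B6 is lower in brm-1 and in brm-1 clf-29; levels are not comparable between the panels.

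The PRA1.B6 signal in Col was 8.64, 8.75 and 9.04 (8.81 ± 0.21). In brm-1 it was 8.09, 7.52 and 8.45 (8.02 ± 0.47), and in clf-29 it was 8.25, 8.53 and 8.78 (8.52 ± 0.27). In brm-1 clf-29 it was 7.40, 7.67 and 7.74 (7.60 ± 0.18). Replicate 3 was the highest array in each of the 4 genotypes for this gene. The brm-1 and brm-1 clf-29 arrays were below every Col array, and those of the double mutant also below every clf-29 array. The clf-29 arrays overlapped those of Col and of brm-1, and brm-1 replicate 2 (7.52) fell within the range of the double mutant. Taken by replicate number, clf-29 differed from Col by -0.39, -0.22 and -0.26, and brm-1 clf-29 from brm-1 by -0.69, 0.15 and -0.71. Whether replicates 1 and 2 are paired across genotypes was not shown, so these differences do not outweigh the overlap. PRA1.B6 differed from Col by -0.79 ± 0.22 in brm-1 (1.73-fold lower), by -0.29 ± 0.22 in clf-29 and by -1.21 ± 0.22 in brm-1 clf-29 (2.31-fold lower). By replicate number the double mutant differed from Col by -1.24, -1.08 and -1.30, a narrow range beside that of brm-1 against Col, -0.55, -1.23 and -0.59. Without brm-1 replicate 2 the PRA1.B6 difference of brm-1 from Col was -0.54, and without brm-1 replicate 3 it was -1.01.

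The PRA1.B4 signal in Col was 9.43, 9.51 and 9.79 (9.58 ± 0.19). In brm-1 it was 9.19, 9.33 and 9.52 (9.35 ± 0.17), and in clf-29 it was 9.27, 8.81 and 9.19 (9.09 ± 0.25). In brm-1 clf-29 it was 9.03, 8.96 and 8.91 (8.97 ± 0.06). Means declined from Col through brm-1 and clf-29 to the double mutant, and each genotype in that order overlapped the next. The clf-29 and brm-1 clf-29 arrays were all below the Col arrays, and the double-mutant arrays all below those of brm-1. PRA1.B4 differed from Col by -0.23 ± 0.14 in brm-1, by -0.49 ± 0.14 in clf-29 and by -0.61 ± 0.14 in brm-1 clf-29, a 1.53-fold lower signal. By replicate number the double mutant differed from Col by -0.40, -0.55 and -0.88, and clf-29 by -0.16, -0.70 and -0.60. The brm-1 arrays overlapped those of Col, and by replicate number they differed from Col by -0.24, -0.18 and -0.27. As pairing of replicates 1 and 2 was not shown, these differences do not outweigh the overlap.

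The counts below are set beside the shares of all 13356 genes, dim ones included. Such a share also holds scatter between arrays: for the interaction, 28.1% of all genes passed a 1.5-fold difference and limma called 0. No share among genes of like brightness was computed. In brm-1 clf-29 against Col, all 3 genes had lower arrays without overlap, as did 12.8% of all genes. In brm-1 against Col this was so for 2 of the 3 (PRA1.F1 and PRA1.B6) and for 11.7% of all genes, and in clf-29 against Col for 2 (PRA1.F1 and PRA1.B4) and for 9.21% of all genes. Between brm-1 clf-29 and clf-29 it was so for 2 (PRA1.F1 and PRA1.B6) and for 8.83% of all genes, and between brm-1 clf-29 and brm-1 for 2 (PRA1.F1 and PRA1.B4) and for 6.28%. Of the 6 other PRA1 genes, 4 (PRA1.B1, PRA1.E, PRA1.G2 and PRA1.H) were likewise lower without overlap in brm-1 clf-29 against Col. In clf-29 against Col it was 3 of the 6, and in brm-1 against Col 1. Set against clf-29, the double mutant was so for 0 of the 6, and set against brm-1 for 1. A 1.5-fold difference in mean signal, the criterion of the study, was passed in the double mutant against Col by all 3 genes and by 28% of all genes in either direction. It was passed by PRA1.B6 in brm-1 (23.9% of all genes) and by 0 of the 3 in clf-29 (23.7%). Against clf-29 the double mutant passed it for PRA1.F1 and PRA1.B6 (24.5%), against brm-1 for PRA1.F1 (23.2%), and the interaction for PRA1.F1 (28.1%). Of all genes, 5.28% had a lower difference between the double mutant and Col than PRA1.B6, 6.80% a lower one than PRA1.F1 and 14.2% a lower one than PRA1.B4. As the 3 genes were picked with these values in view, nothing follows from these shares about the family.

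The double mutant could also be set beside each single mutant, which asks what the loss of BRM adds where CLF is already lost, and the reverse. For PRA1.F1 the loss of BRM went with a difference of -0.27 ± 0.15 where CLF was present and of -0.86 ± 0.15 where it was not. For PRA1.B6 the same 2 differences were -0.79 ± 0.22 and -0.92 ± 0.22. For PRA1.B4 they were -0.23 ± 0.14 and -0.12 ± 0.14. The addition of clf-29 to brm-1 went with differences of -0.79 ± 0.15 for PRA1.F1, -0.42 ± 0.22 for PRA1.B6 and -0.38 ± 0.14 for PRA1.B4. That of PRA1.B6 rested on which brm-1 arrays were kept, being -0.67 without brm-1 replicate 2 and -0.20 without brm-1 replicate 3.

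If the differences of both single mutants were added to the Col mean, PRA1.F1 would stand at 7.40 in the double mutant, and its measured mean was 6.81, with every double-mutant array below the sum. This excess, the interaction of both mutations, was -0.59 ± 0.22. For PRA1.B6 the sum was 7.73 and the measured mean 7.60 (interaction -0.13 ± 0.31), and for PRA1.B4 the sum was 8.86 and the measured mean 8.97 (interaction 0.11 ± 0.20). The last 2 values were within their standard errors. Across all 13356 genes, 0% were called for the interaction by limma at an adjusted p under 0.05, and 754 genes (5.65%) had an unadjusted p under 0.05. An interaction lower than that of PRA1.F1 was found for 15% of all genes.

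**Figure D2:**
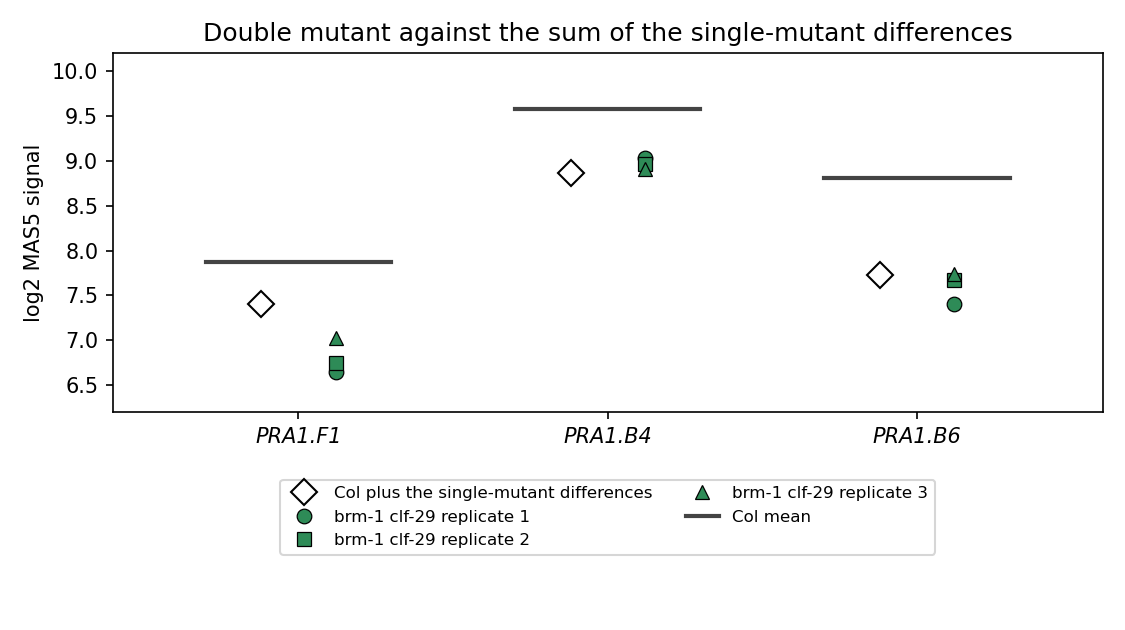
The log2 MAS5 signal (vertical axis) of the 3 genes in the double mutant: filled markers are the brm-1 clf-29 arrays, open diamonds the Col mean plus the differences of both single mutants, and lines the Col mean. For PRA1.F1 all 3 arrays lie below the sum of 7.40, while for PRA1.B4 and PRA1.B6 the measured means (8.97 and 7.60) lie near it.

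The 3 genes were also compared with each other. Over the 12 arrays, Pearson's r was 0.80 between PRA1.F1 and PRA1.B6, 0.69 between PRA1.F1 and PRA1.B4 and 0.58 between PRA1.B4 and PRA1.B6. These points share the genotypes on which the genes were chosen and the arrays themselves. After the genotype means were taken off, the deviations correlated at 0.27, 0.35 and 0.24, in the same order. With 3 arrays per genotype, these values cannot tell whether the genes move together within a genotype.

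Of the 6 other PRA1 genes, the dim PRA1.G1 is described apart. The other 5 differed from Col by between -0.18 and -0.06 in brm-1, between -0.63 and -0.12 in clf-29 and between -0.52 and -0.13 in brm-1 clf-29. Limma called 0 of the 6 in any of the 6 comparisons, beside 1.86% of all genes called for brm-1 against Col, 0.943% for clf-29 and 4.99% for brm-1 clf-29. Where the double mutant was set against a single mutant, the share of all genes called was 1.47% (clf-29) or 0.217% (brm-1). At an unadjusted p under 0.05, 0, 2 and 1 of the 6 passed in brm-1, clf-29 and the double mutant against Col, 1 in brm-1 clf-29 against clf-29, 0 in brm-1 clf-29 against brm-1 and 1 for the interaction. Of all genes, 13.1%, 12% and 18.3% did so in brm-1, clf-29 and the double mutant against Col, and 12.9%, 9.77% and 5.65% in the last 3 comparisons. PRA7 and PRA8 were not called either. The median difference of the 6 genes from Col was -0.14 in brm-1, -0.24 in clf-29 and -0.18 in brm-1 clf-29, beside -0.04, 0 and -0.02 over all genes.

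**Figure D3:**
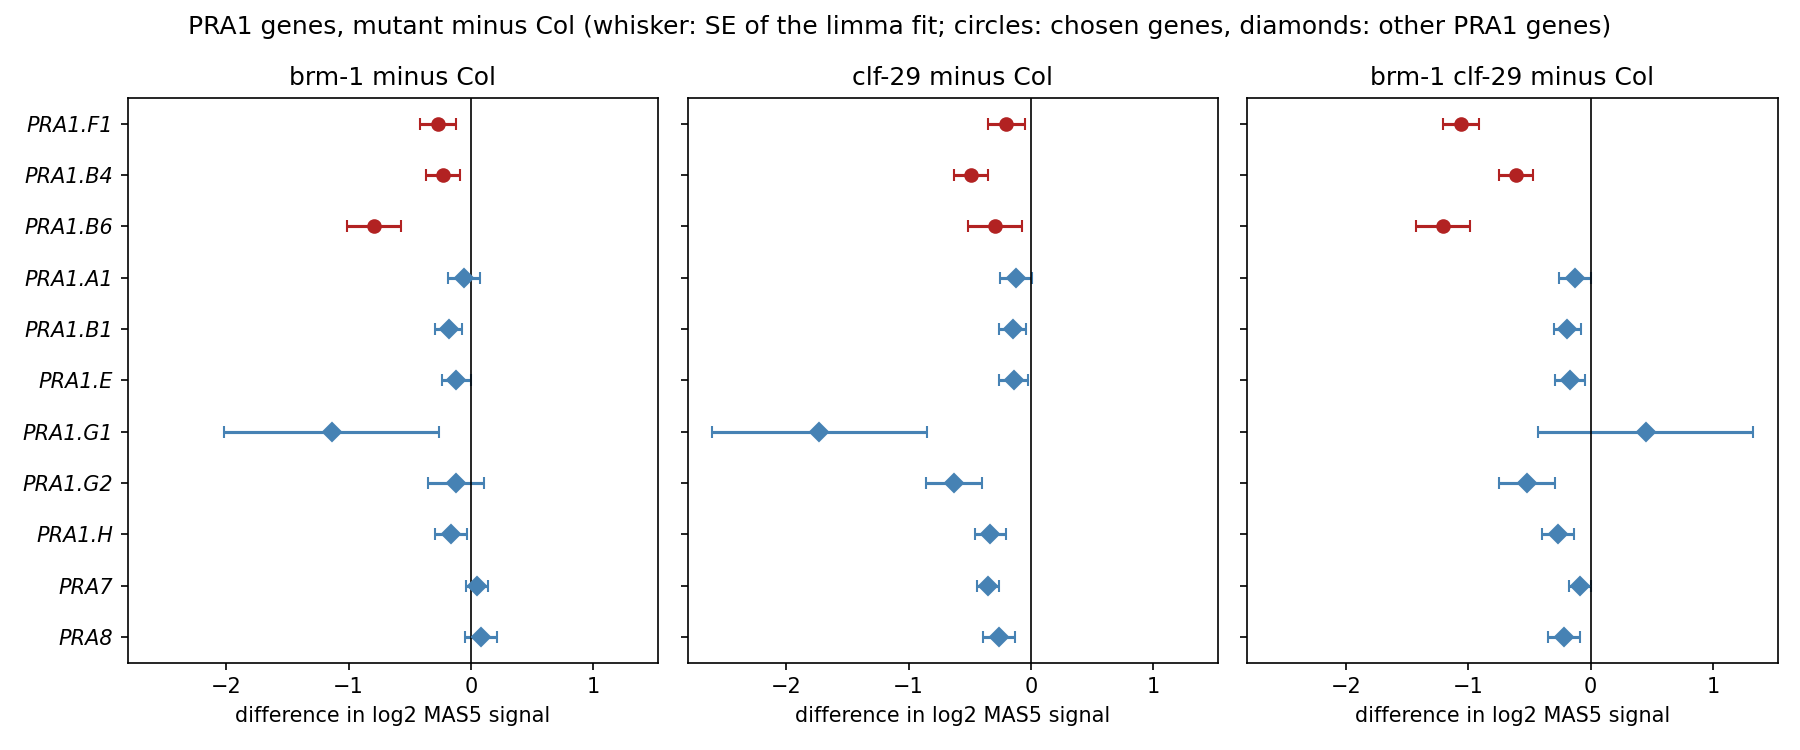
Difference in log2 MAS5 signal from Col (horizontal axis, 1 panel for each mutant) of the 11 PRA1 genes measured alone; whiskers are SEs of the limma fit, circles the 3 chosen genes and diamonds the other 8. In brm-1 clf-29, PRA1.F1 (-1.06) and PRA1.B6 (-1.21) lie left of the other PRA1 genes; PRA1.G1, near the background, has the widest whiskers.

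Among these, PRA1.B1, of the same clade as 2 of the chosen genes, stood at 10.03, 10.04 and 10.05 in Col and at 9.77, 9.81 and 9.98 in brm-1 clf-29. Its difference was -0.19 ± 0.11 (limma adjusted p = 0.393), although the arrays of both genotypes did not overlap. It was -0.18 ± 0.11 in brm-1 and -0.15 ± 0.11 in clf-29 (adjusted p = 0.523 and 0.658). PRA1.A1 differed from Col by -0.06, -0.12 and -0.13 in brm-1, clf-29 and the double mutant, and PRA1.E by -0.12, -0.14 and -0.17, with SEs of 0.13 and 0.12. The arrays of PRA1.A1 overlapped between all genotypes.

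PRA1.G2 and PRA1.H were lowest in clf-29. PRA1.G2 stood at 7.47, 7.26 and 6.99 in Col, 7.17, 7.28 and 6.90 in brm-1, 6.64, 6.97 and 6.22 in clf-29 and 6.62, 6.82 and 6.73 in brm-1 clf-29. Both genotypes that carry clf-29 were thus below Col on every array. The differences were -0.63 ± 0.23 in clf-29 (limma adjusted p = 0.272) and -0.52 ± 0.23 in brm-1 clf-29 (adjusted p = 0.241), so neither passed. PRA1.H, at 8.40 ± 0.04 in Col, was 8.24 ± 0.14 in brm-1, 8.07 ± 0.23 in clf-29 and 8.13 ± 0.03 in brm-1 clf-29. Its differences of -0.33 ± 0.13 in clf-29 and -0.27 ± 0.13 in brm-1 clf-29 did not pass (adjusted p = 0.338 and 0.312).

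PRA7 and PRA8, of the same clade as PRA1.F1, followed another order than that gene. PRA7 stood at 9.39 on all 3 Col arrays, at 9.36, 9.48 and 9.47 in brm-1, at 8.98 to 9.14 in clf-29 and at 9.39, 9.21 and 9.29 in brm-1 clf-29. The clf-29 arrays were below those of the other 3 genotypes, double mutant included. The difference of clf-29 from Col was -0.35 ± 0.09 (limma adjusted p = 0.112) and that of brm-1 clf-29 from Col -0.09 ± 0.09 (adjusted p = 0.668). With replicate 3 as a term in the fit, PRA7 was called in clf-29 (adjusted p = 0.0377). PRA8 stood at 10.22 ± 0.06 in Col, 10.30 ± 0.12 in brm-1, and 9.96 ± 0.06 in clf-29. Its double-mutant arrays were 9.80, 9.83 and 10.36, the last being replicate 3, so they lay both below and above the Col arrays. PRA8 was not called in brm-1 clf-29 (-0.22 ± 0.13, adjusted p = 0.435). Without brm-1 clf-29 replicate 3 the difference was -0.40 with an adjusted p of 0.0354, and it was called with replicates 1 and 2 alone (adjusted p = 0.034).

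PRA1.G1 was dim. It was under the background on 1 Col array, 2 brm-1 arrays, all 3 clf-29 arrays and no brm-1 clf-29 array. The Col arrays read 5.44, 4.60 and 5.31, those of brm-1 1.42, 4.61 and 5.89, those of clf-29 3.72, 2.78 and 3.67 and those of brm-1 clf-29 5.33, 5.58 and 5.79. The mean was above the background by 1.33-fold in Col and by 1.81-fold in brm-1 clf-29, so clf-29 could be read only as lower than a signal that is itself near the background. No comparison of PRA1.G1 was called (limma adjusted p = 0.315 for brm-1 clf-29 against clf-29, 0.476 for clf-29 against Col and 0.855 for the interaction).

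**Figure D4:**
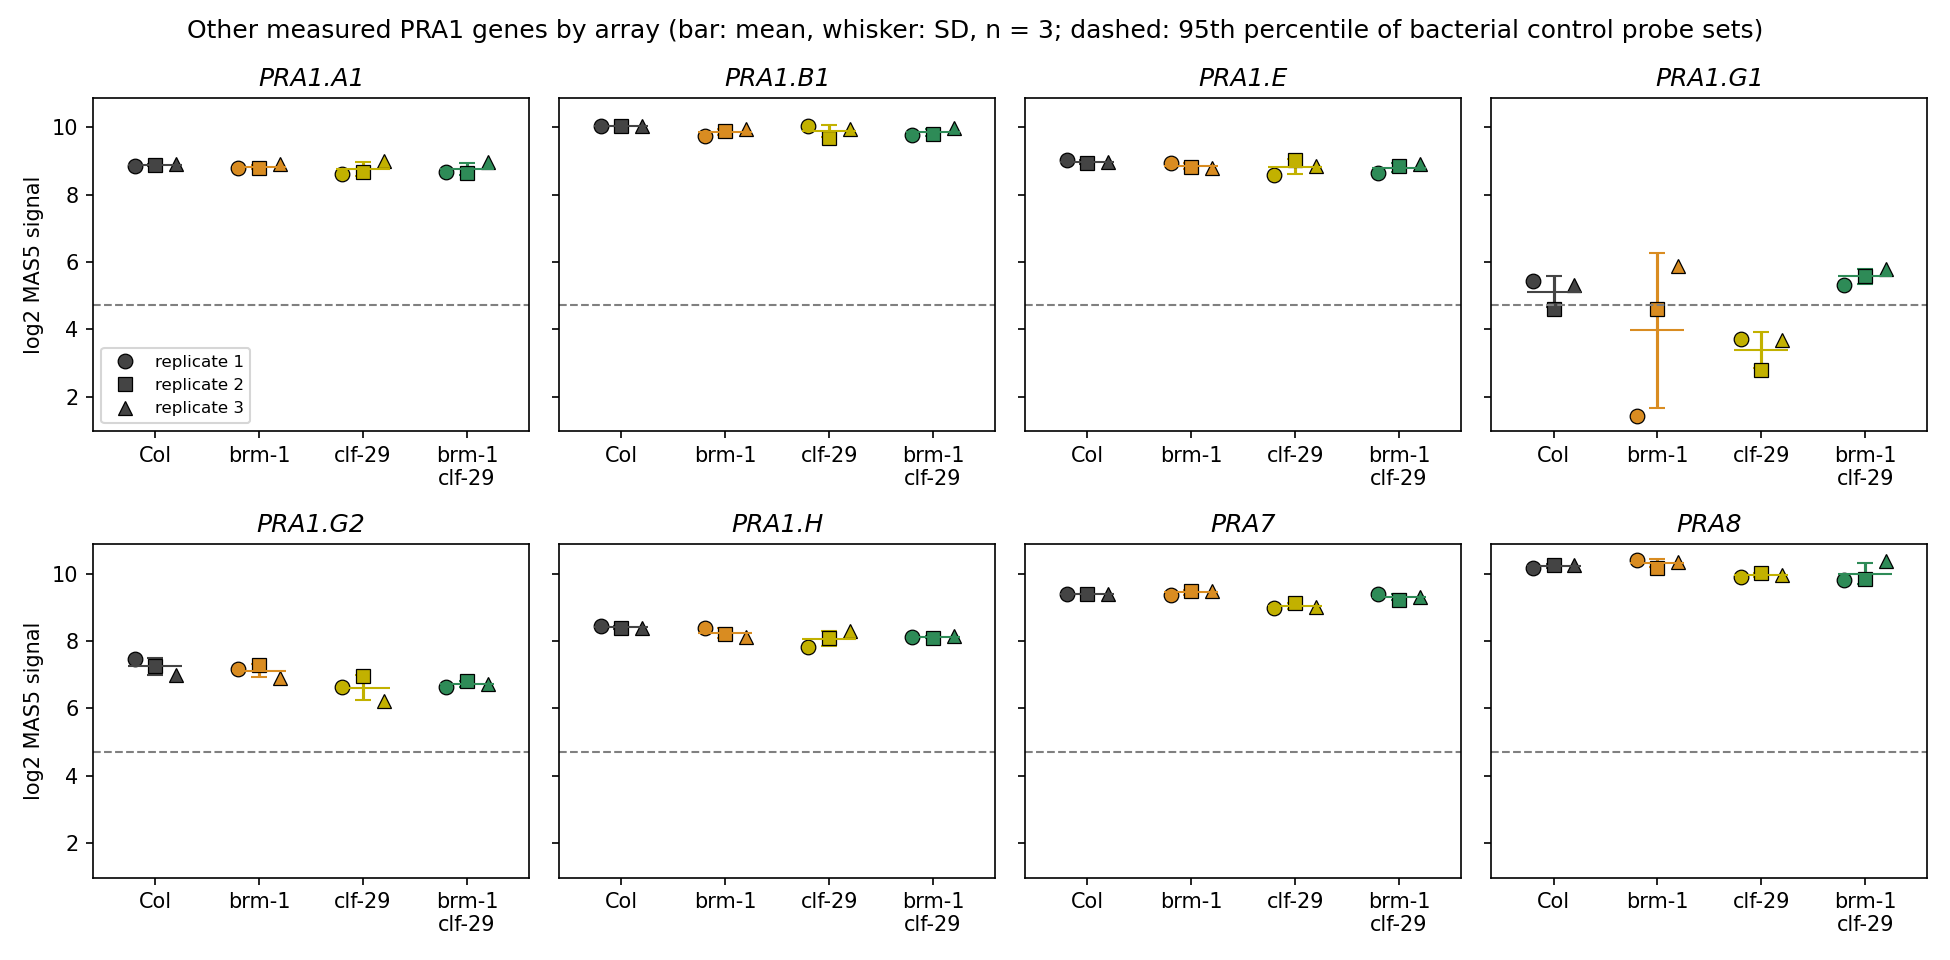
The log2 MAS5 signal (vertical axis) of the 8 other PRA1 genes on each array, by genotype; horizontal bars are means and whiskers SDs of 3 arrays, and the dashed line is the background of 4.71. PRA7 is lower in clf-29 (8.98 to 9.14) than in the other genotypes, PRA8 replicate 3 of brm-1 clf-29 (10.36) stands above replicates 1 and 2, and PRA1.G1 scatters around the background; levels are not comparable between the panels.

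The probe sets shared by PRA1.F4 and AT3G13700 went opposite ways in brm-1 clf-29 against Col, by 0.38 ± 0.15 and by -0.65 ± 0.20 (limma adjusted p = 0.154 and 0.0754). Neither was called, and which of both genes they read is not known.

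The partners of PRA1 proteins were measured only in small part. Of 195 membrane-trafficking genes listed, 23 had a probe set naming them alone in the annotation used here. That annotation left 8794 of the 22810 probe sets without a gene name, so a gene not counted may still be on the array. These were 2 of 57 RAB GTPases, 2 of 15 genes of RAB recycling and prenylation, 4 of 7 RAB activators, 4 of 57 SNAREs (the proteins that fuse vesicles with their target), 2 of 13 genes of the COPII and COPI vesicle coats and 9 of 46 genes of the exocyst and other tethers. By limma, 0 of the 23 were called in any of the 6 comparisons, beside 4.99% of all genes in brm-1 clf-29 against Col. At an unadjusted p under 0.05, 1, 2 and 3 of the 23 passed in brm-1, clf-29 and the double mutant against Col, 0 in brm-1 clf-29 against clf-29, 1 in brm-1 clf-29 against brm-1 and 0 for the interaction. The shares of all genes with such a p were 13.1%, 12%, 18.3%, 12.9%, 9.77% and 5.65% in the same order. The median difference of the 23 genes in brm-1 clf-29 was -0.15, beside -0.02 over all genes.

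The RAB GTPases RAB6A, of the Golgi, and ARA6, of endosomes, differed from Col by -0.09 ± 0.09 and -0.14 ± 0.10 in brm-1 clf-29 (limma adjusted p = 0.681 and 0.531). FCLY, the farnesylcysteine lyase that breaks down products of prenylated proteins, was nearest to the threshold. It stood at 8.82, 8.91 and 9.13 in Col and at 8.42, 8.56 and 8.34 in brm-1 clf-29, a difference of -0.51 ± 0.14 (adjusted p = 0.0606), and it was called with a replicate block (adjusted p = 0.0398). ATSTE24, a protease that trims prenylated proteins, differed by -0.14 ± 0.11 (adjusted p = 0.568). The exocyst subunit SEC6 differed by -0.35 ± 0.11 (adjusted p = 0.091), and the SNARE YKT61 by -0.28 ± 0.08 in brm-1 (adjusted p = 0.137). The remaining measured members are shown by their differences in the plot of trafficking genes.

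**Figure D5:**
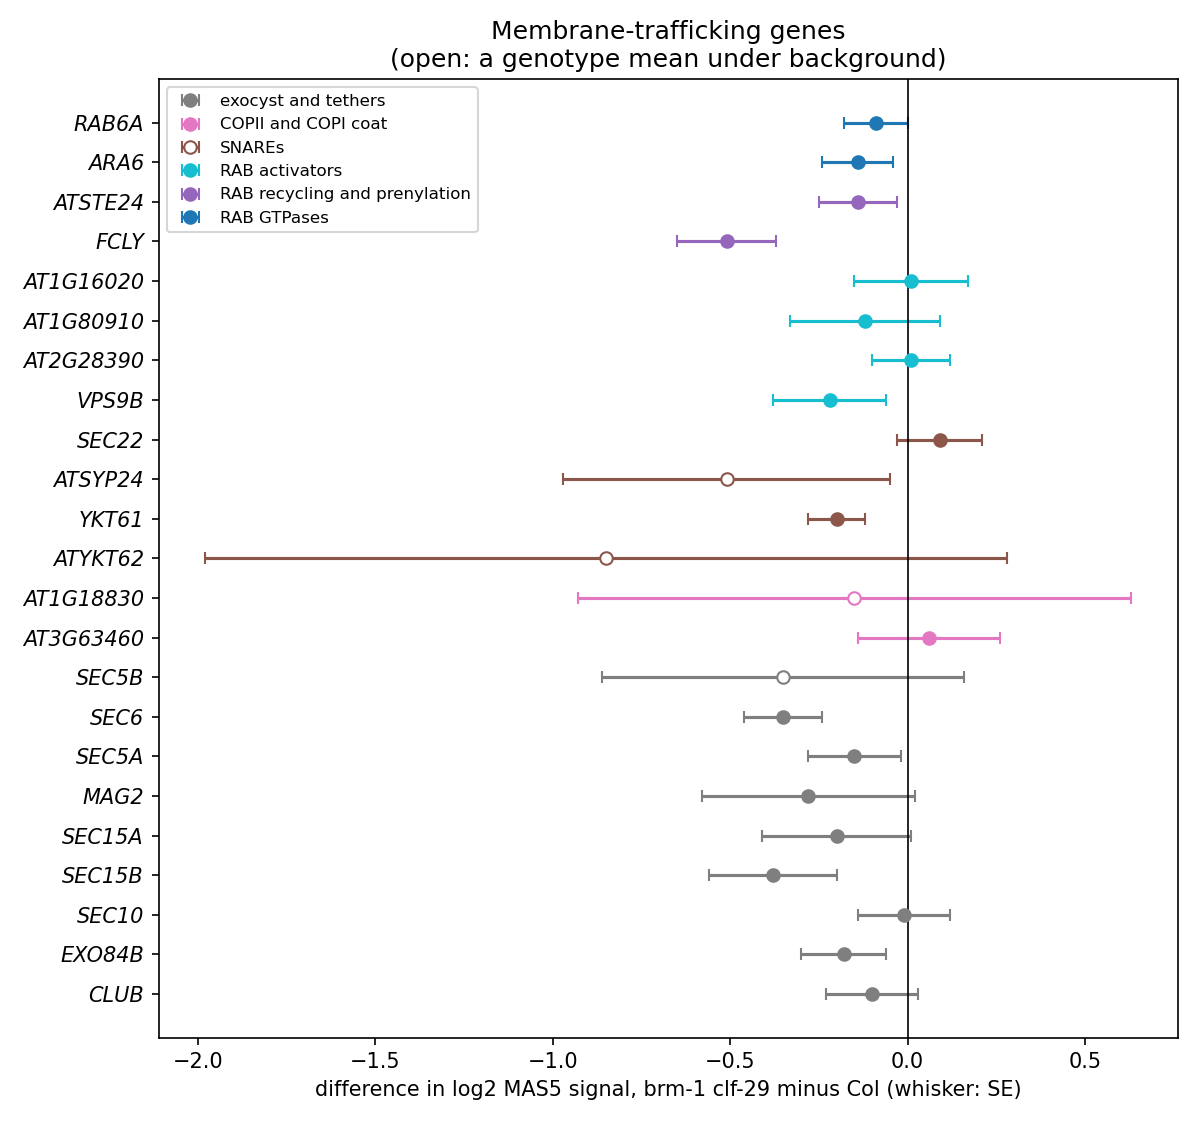
Difference in log2 MAS5 signal between brm-1 clf-29 and Col (horizontal axis) of the 23 measured membrane-trafficking genes, coloured by list; whiskers are SEs of the limma fit, and open circles are genes with a genotype mean under the background. FCLY (-0.51) is the lowest of the filled circles, and 0 of the 23 were called.

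For each chosen gene, the 3 most alike genes over the 12 arrays were sought by Pearson's r among the 6667 other genes with a mean above the median of all genes. For PRA1.F1 these were AT2G47880 (r = 0.90), AT5G59950 (0.88) and AT5G66560 (0.88). For PRA1.B4 they were AT2G25510 (0.93), AT3G27770 (0.92) and AT3G47480 (0.91), and for PRA1.B6 AT5G02420 (0.97), AT5G07080 (0.95) and AT1G63720 (0.95). The arrays share genotype and replicate number, so such values are common. An r above 0.8 was reached by 40 genes for PRA1.F1, 64 for PRA1.B4 and 132 for PRA1.B6.

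The size of the differences varied between the alike genes, and the order of the single mutants was not always that of the chosen gene. AT2G47880, most like PRA1.F1, had mean levels of 9.58 in Col, 8.10 in brm-1, 7.18 in clf-29 and 4.02 in brm-1 clf-29, the last from arrays at 1.68, 4.93 and 5.46 of which 1 was under the background. Its clf-29 mean lay below that of brm-1, where for PRA1.F1 it lay above. AT2G25510, most like PRA1.B4, declined from 14.13 in Col through 13.24 in brm-1 and 12.66 in clf-29 to 12.18 in the double mutant. AT5G02420, most like PRA1.B6, stood at 8.29 in Col, 7.81 in brm-1, 8.16 in clf-29 and 7.56 in the double mutant.

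AT5G07080 lies near PRA1.B6 on chromosome 5, with 2 protein-coding genes between them in the gene table. Its mean level was 7.70 in Col, 7.31 in brm-1, 7.46 in clf-29 and 6.83 in brm-1 clf-29, the genotype order of PRA1.B6. AT5G07090, which lies between them, was bright and nearly level (11.94, 11.76, 11.78 and 11.75). After these values were seen, the 5 protein-coding genes on each side of the 3 chosen genes were examined, of which 4 near each were measured. Of the 12 measured, limma called 1 in brm-1 clf-29 against Col, AT5G07080 itself (lower), which had been picked for its likeness to PRA1.B6, beside 4.99% of all genes. In the other 5 comparisons limma called 0 of the 12, beside 0% to 1.86% of all genes, and 0 to 2 had an unadjusted p under 0.05, beside 5.65% to 13.1% of all genes. The median difference of the 12 from Col was -0.16 in brm-1, -0.08 in clf-29 and -0.12 in brm-1 clf-29. Other neighbours were also above the background on every array. In the double mutant, AT2G38370, TBL34 and AT2G38330, near PRA1.B4, differed from Col by -0.34 ± 0.19, -0.04 ± 0.22 and 0.05 ± 0.15 (limma adjusted p = 0.393, 0.962 and 0.918). Near PRA1.F1, AT1G17680 and AT1G17640 differed by 0 ± 0.18 and 0.24 ± 0.25 (adjusted p = 0.995 and 0.687). Near PRA1.B6, AT5G07090 differed by -0.20 ± 0.11 (adjusted p = 0.366).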

How the data were processed

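The authors deposited a log2 signal for each probe set of each array, made, per the labels, with MAS5 and the affy package. Neither version is stated in the sources used here. Back on the linear scale, each array had a 2% trimmed mean of 500.0, which shows a scaling to 1 common mean. The array medians lay between 7.54 and 7.66. With 3 arrays per genotype, their number limits the precision, and p-values measure the spread between biological replicates as labelled. Scanner files were not used here.

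Of 22810 probe sets (64 of them controls), 13513 named 1 gene, 503 several and 8794 none. RefSeq's TAIR10.1 gene table, used for symbols and gene order only, held 13436 of the 13513. Where several single-gene probe sets read a gene (146 genes), the one of highest mean was kept, giving 13356 genes. BRM and CLF were not among them, so no array was checked for loss of the mutated gene's transcript.

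Genes were fitted with limma 3.58.1 in R 4.3.3 (1 mean per genotype over 12 arrays, eBayes with trend, two-sided, p-values adjusted by Benjamini-Hochberg across the 13356 genes). Calls were made at an adjusted p under 0.05. The interaction was brm-1 clf-29 minus clf-29, less brm-1 minus Col. The fit was tested on simulated data. The replicate numbers came from the sample titles. Same-numbered arrays deviated together from their genotype means in all 6 pairs of each number. Their r was 0.22 to 0.44 for replicate 1, 0.20 to 0.42 for replicate 2 and 0.44 to 0.71 for replicate 3. Replicate 3 stood apart in every genotype, and deviations from a genotype mean cancel out, so replicates 1 and 2 lean against it together. Arrays of unlike number were not compared, so whether replicates 1 and 2 are paired across genotypes was not shown. The blocked value is printed where it changes a call.

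The members and gene lists were chosen with earlier results of these data known. Trafficking lists were formed from symbols and synonyms in the gene table. Named were the 3 chosen genes, every other measured PRA1 gene, list members called in any comparison (at most 4 per comparison) and the 3 genes most like each chosen gene. As no list member was called, RAB6A, ARA6, FCLY, ATSTE24, SEC6, SEC15B and YKT61 were named after their values were seen. Tried as alternatives were an offset of 16 before log2, quantile normalization, array medians set to 0, genes above the median alone, eBayes with no trend or robust, array weights, the compared genotypes alone, a replicate block, replicate 3 as a term, replicates 1 and 2 alone, all non-control probe sets, a 1.5-fold criterion with no test, and each array left out.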

Additional observations from a re-analysis of the deposited data

How the results depend on the processing

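The differences of PRA1.F1, PRA1.B4 and PRA1.B6 from Col stayed below 0 under the alternatives run. With arrays centred on their medians, that of PRA1.F1 in brm-1 was -0.18 in place of -0.27. With an array left out, the difference of brm-1 clf-29 from Col lay between -1.17 and -0.98 for PRA1.F1, between -0.68 and -0.50 for PRA1.B4 and between -1.29 and -1.09 for PRA1.B6. The smaller differences depended more on single arrays. PRA1.F1 in clf-29 lay between -0.26 and -0.10 (highest without clf-29 replicate 2), PRA1.B4 in brm-1 between -0.32 and -0.12 (without Col replicate 3) and PRA1.B6 in clf-29 between -0.42 and -0.16 (without clf-29 replicate 1). The interaction lay between -0.70 and -0.52 for PRA1.F1, but on both sides of 0 for PRA1.B4 (-0.03 to 0.20) and PRA1.B6 (-0.38 to 0.09). For PRA1.B6, brm-1 clf-29 less brm-1 lay between -0.67 and -0.20 (without brm-1 replicate 2 or 3), and for PRA1.B4, brm-1 clf-29 less clf-29 lay between -0.26 and -0.03. With a replicate block the SE of PRA1.B6 differences was 0.16 in place of 0.22.

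Of the 6 other PRA1 genes 0 were called under each alternative with a test. The 1.5-fold criterion took 1 of them in brm-1 against Col, 2 in clf-29 against Col and 1 each in brm-1 clf-29 against clf-29, in brm-1 clf-29 against brm-1 and for the interaction, with the dim PRA1.G1 in all 5. Centring each array on its median left 5 of the 6 below 0 in brm-1, in place of 6. In brm-1 clf-29 against Col, the 0 trafficking genes called became 1 (FCLY) with genes above the median alone, with array weights and with the replicate block, 3 (FCLY, SEC6 and SEC15B) with replicate 3 as a term, and 1 (SEC15B) with replicates 1 and 2 alone. Array weights called 1 in brm-1 (YKT61), and replicates 1 and 2 alone called 1 in clf-29 (SEC15B). The 1.5-fold criterion took 1 trafficking gene in each mutant against Col, 4 in brm-1 clf-29 against clf-29, 1 against brm-1 and 2 for the interaction, all of them among the 4 with a genotype mean under the background (ATSYP24, ATYKT62, AT1G18830 and SEC5B). The block changed no other call among the PRA1 and trafficking genes. With an array left out, 0 of the 6 PRA1 and 0 of the 23 trafficking genes were called in any comparison.

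Over all genes the count called in brm-1 against Col was 249, and 86 to 730 under the alternatives. In clf-29 it was 126 (42 to 735), in brm-1 clf-29 667 (299 to 1553), for brm-1 clf-29 against clf-29 196 (61 to 605) and against brm-1 29 (3 to 359), and for the interaction 0 (0 to 28). The cause of these shifts was not tested.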
